A study of Mus musculus with 6 samples.

Results

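Lipolysis genes, which run the breakdown of stored triglyceride in fat cells, were examined in whole inguinal mammary glands of mice in which Mt1-mmp had been removed from the stroma, against glands of wild-type littermates. The set was defined by 9 symbols, namely the beta-adrenergic receptor genes Adrb1 and Adrb3 and the lipolysis genes Pnpla2, Lipe, Mgll, Abhd5, G0s2, Plin1 and Pde3b, each read by the probe set with the highest mean among those that carry 1 gene symbol. Of these, 7 were measured among 22180 genes in all, and all 7 lay above the 33rd percentile of gene levels in both groups. Neither Adrb1 nor Adrb3 was named through the probe annotation used here, so the receptors were not analysed here and the values below concern the steps that follow them.

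The knockout mice were labelled Dermo1Cre/Mt1-mmp(fl/fl) and the wild-type mice Mt1-mmp(+/+), with 3 of each, all of strain C57BL/6J and 4 weeks old. Mt1-mmp, now named Mmp14, encodes a membrane-anchored matrix metalloproteinase, and Dermo1, now named Twist2, drives the Cre recombinase in mesenchymal cells. Every knockout gland carried both the Cre and the floxed allele, so an effect of the Cre itself cannot be told apart from the loss of Mmp14. The labels call the samples biological replicates, and each gave 1 Affymetrix array hybridised from 400 ng of total RNA. Signals are on the log2 scale throughout, a difference is knockout minus wild type, and n = 3 arrays per group.

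In fat cells, noradrenaline acts through beta-adrenergic receptors and a stimulatory G protein to raise cyclic AMP, which activates protein kinase A. The kinase phosphorylates perilipin 1 (Plin1) on the lipid droplet surface, which then releases Abhd5, the coactivator of adipose triglyceride lipase (Pnpla2). Adipose triglyceride lipase, hormone-sensitive lipase (Lipe) and monoglyceride lipase (Mgll) then remove the fatty acids in turn, while G0s2 inhibits the first of these enzymes and Pde3b degrades cyclic AMP in response to insulin.

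The promoters of Abhd5 and G0s2 are shown because these genes had the largest and the smallest difference of the set. Both come from RefSeq, build GRCm38.p6, and each is the 250 bases before the transcription start, read 5′ to 3′ on the gene's own strand. Abhd5 lies on the plus strand at chr9:122351366-122351615 and G0s2 on the minus strand at chr1:193273189-193273438.
Abhd5: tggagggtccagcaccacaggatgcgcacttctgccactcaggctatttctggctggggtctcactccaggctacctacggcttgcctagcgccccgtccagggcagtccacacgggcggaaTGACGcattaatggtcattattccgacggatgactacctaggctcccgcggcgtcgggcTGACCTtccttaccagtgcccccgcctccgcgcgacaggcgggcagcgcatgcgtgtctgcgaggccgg
G0s2: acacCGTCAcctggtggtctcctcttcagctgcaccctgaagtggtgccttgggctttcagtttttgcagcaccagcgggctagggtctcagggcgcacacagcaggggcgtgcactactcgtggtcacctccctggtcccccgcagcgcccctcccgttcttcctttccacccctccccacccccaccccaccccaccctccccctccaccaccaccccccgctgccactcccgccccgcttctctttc
Capitals mark matches on either strand to AGGTCA, a nuclear receptor motif, or TGACG, the core of the cyclic AMP response element. The Abhd5 window held 1 of each, at 69 and 128 bases before the start. The G0s2 window held TGACG once, on the opposite strand and 246 bases before the start, and had no match to AGGTCA. Among 32851 RefSeq promoters of the same length, 14.0% held AGGTCA, 17.8% held TGACG, 33.8% held CCAAT and 1.55% held the whole element TGACGTCA, which contains TGACG. Of the 7 measured members, 6 had promoter entries in the table, 8 entries in all. Apart from the matches in Abhd5 and G0s2 these windows held none of the 4 motifs. The promoters of Adrb1 and Adrb3 were not searched.

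Of the 7 measured genes, 5 rose in the knockout and 0 fell, against 5.05% of all genes that rose and 7.2% that fell (limma, adjusted p under 0.05 over all genes). Abhd5, Pde3b, Mgll, Plin1 and Lipe rose by 0.56 to 0.93 log2 units, that is 1.48-fold to 1.91-fold. Pnpla2 and G0s2 did not pass the test. In 6 of the 7 genes every knockout array lay above every wild-type array, which was so for 17.2% of all genes. The median difference over the 7 genes was 0.66, against 0.03 over all genes.

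**Figure D1:**
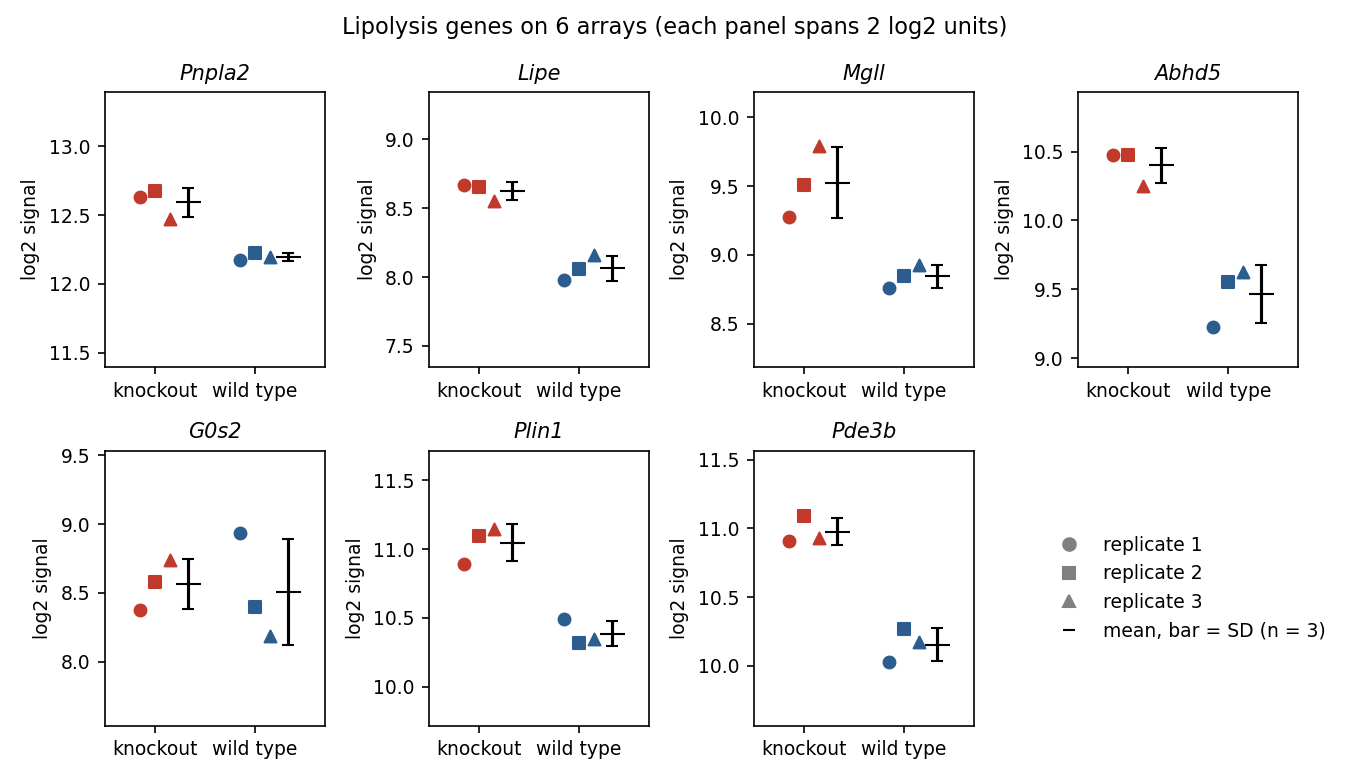
Log2 signal of the 7 measured lipolysis genes on each array, knockout at the left of each panel and wild type at the right, with the mean and SD of 3 arrays as a black bar. The knockout arrays lie above the wild-type arrays for all genes but G0s2, where wild type 1, at 8.93, is the highest of the 6.

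The lipases came out as follows. Pnpla2, which takes the first fatty acid from triglyceride, had 12.63, 12.67 and 12.47 in knockout glands, against 12.17, 12.23 and 12.19 in wild-type glands. The groups did not overlap, yet the difference of 0.40 ± 0.11 log2 units (SE, 1.32-fold, 95% interval 1.10 to 1.58) did not pass the threshold (limma adjusted p = 0.0585). These levels are close to the array maxima of 13.3 to 13.4, where a rise may be read too small. With an intensity trend in the variance, which draws the variance estimate of a gene toward that of genes of like level, Pnpla2 passed (limma adjusted p = 0.00491).

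Lipe, which acts mainly on diglyceride, had 8.67, 8.65 and 8.55 in knockout glands, against 7.98, 8.06 and 8.16 in wild-type glands. It rose by 0.56 ± 0.11 log2 units (1.48-fold, limma adjusted p = 0.0172), and the lowest knockout array stood 0.40 above the highest wild-type array. The call was lost without knockout 1 (adjusted p = 0.0555), knockout 2 (0.0661) or wild type 1 (0.0638). Mgll, which releases glycerol from monoglyceride and also breaks down an endocannabinoid, had 9.27, 9.51 and 9.79 in knockout glands, against 8.76, 8.85 and 8.93 in wild-type glands. It rose by 0.68 ± 0.15 (1.60-fold, limma adjusted p = 0.0264), with the widest spread of the 7 genes among knockout arrays (SD 0.26). The Mgll call held without knockout 1 (adjusted p = 0.0231) and was lost without any other array (adjusted p 0.0559 to 0.0922).

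The coactivator rose and the inhibitor did not pass. Abhd5 had 10.47, 10.48 and 10.25 in knockout glands, against 9.22, 9.55 and 9.62 in wild-type glands. It rose by 0.93 ± 0.15 log2 units (1.91-fold, 95% interval 1.51 to 2.41, limma adjusted p = 0.00682), and leaving out each array in turn kept the call (adjusted p 0.0126 to 0.0316). Wild type 1 was the lowest of the wild-type arrays for Abhd5.

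G0s2 had 8.38, 8.58 and 8.74 in knockout glands, against 8.93, 8.40 and 8.18 in wild-type glands. The groups overlapped, the difference was 0.06 ± 0.20 log2 units (limma adjusted p = 0.887), and its 95% interval ran from -0.41 to 0.53, so a change of the size seen for Pnpla2 in either direction lies within it. Its SD was 0.18 in knockout and 0.39 in wild-type glands, and no other of the 7 genes spread as widely among wild-type arrays. The difference was 0.27 without wild type 1, -0.10 without wild type 3 and -0.03 without knockout 3, and none of these passed. A dimmer probe set of G0s2 read 3.93, 4.21 and 4.13 in knockout glands, against 4.00, 4.10 and 4.12 in wild-type glands, so its groups overlapped as well.

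Plin1, the droplet coat protein that holds Abhd5 until it is phosphorylated, had 10.89, 11.10 and 11.15 in knockout glands, against 10.49, 10.32 and 10.34 in wild-type glands. It rose by 0.66 ± 0.12 log2 units (1.58-fold, limma adjusted p = 0.0129), and the call was lost without knockout 2 (adjusted p = 0.0542). Pde3b, which limits lipolysis by lowering cyclic AMP, had 10.91, 11.09 and 10.93 in knockout glands, against 10.03, 10.27 and 10.17 in wild-type glands. It rose by 0.82 ± 0.12 (1.77-fold, limma adjusted p = 0.00559), a call that no array alone decided (adjusted p 0.0140 to 0.0278 with each left out). The rises thus included Pde3b, which acts against lipolysis, and Plin1, which holds Abhd5 until phosphorylated, beside genes that carry lipolysis out.

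The order of the differences ran from Abhd5 through Pde3b, Mgll, Plin1, Lipe and Pnpla2 to G0s2, and the 95% intervals of neighbours in that order overlapped throughout. Unequal change was tested for 3 pairs of genes by the difference of their log2 signals within each array, with an exact two-sided permutation test that cannot go below p = 0.1. For Pnpla2 minus Abhd5 this was 2.16, 2.20 and 2.22 in knockout arrays, against 2.95, 2.67 and 2.57 in wild-type arrays. The groups did not overlap, and the within-array difference was lower by 0.54 log2 units in the knockout (-0.54, exact permutation p = 0.1, adjusted p = 0.3 over the 3 pairs). Pnpla2 lies close to the array maxima, where a rise may be read too small, and the part of this in the difference was not tested. For Pnpla2 minus G0s2 the means were 4.03 ± 0.27 (SD) in knockout and 3.69 ± 0.40 in wild-type arrays, which overlapped (difference 0.34, exact permutation p = 0.4). For Abhd5 minus Plin1 they were -0.65 ± 0.24 and -0.92 ± 0.30 in knockout and wild-type arrays, which also overlapped (difference 0.27, exact permutation p = 0.4).

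Cell type markers differed between the groups along with these genes, as the plot of marker lists by array shows. All 9 measured luminal epithelial markers fell, and their mean signal was 4.77 to 5.05 in knockout arrays, against 7.23 to 7.47 in wild-type arrays. Of 11 mature adipocyte markers, 3 rose and 0 fell, with list means of 10.85 to 11.00 in the knockout, against 10.56 to 10.60 in wild type. Among them Adipoq, which encodes adiponectin, averaged 9.46 ± 0.06 in the knockout and 9.18 ± 0.05 in wild type (SD, limma adjusted p = 0.133). Of 10 thermogenic adipocyte markers, 5 rose and 0 fell, with list means of 7.07 to 7.59 in the knockout, against 5.44 to 6.67 in wild type. Ucp1, which uncouples respiration in thermogenic fat, read 9.23, 9.62 and 11.07 in knockout glands, against 4.88, 8.80 and 7.12 in wild-type glands (limma adjusted p = 0.0709), while Zic1, a marker of classical brown fat, stayed under the 33rd percentile of gene levels in both groups.

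**Figure D2:**
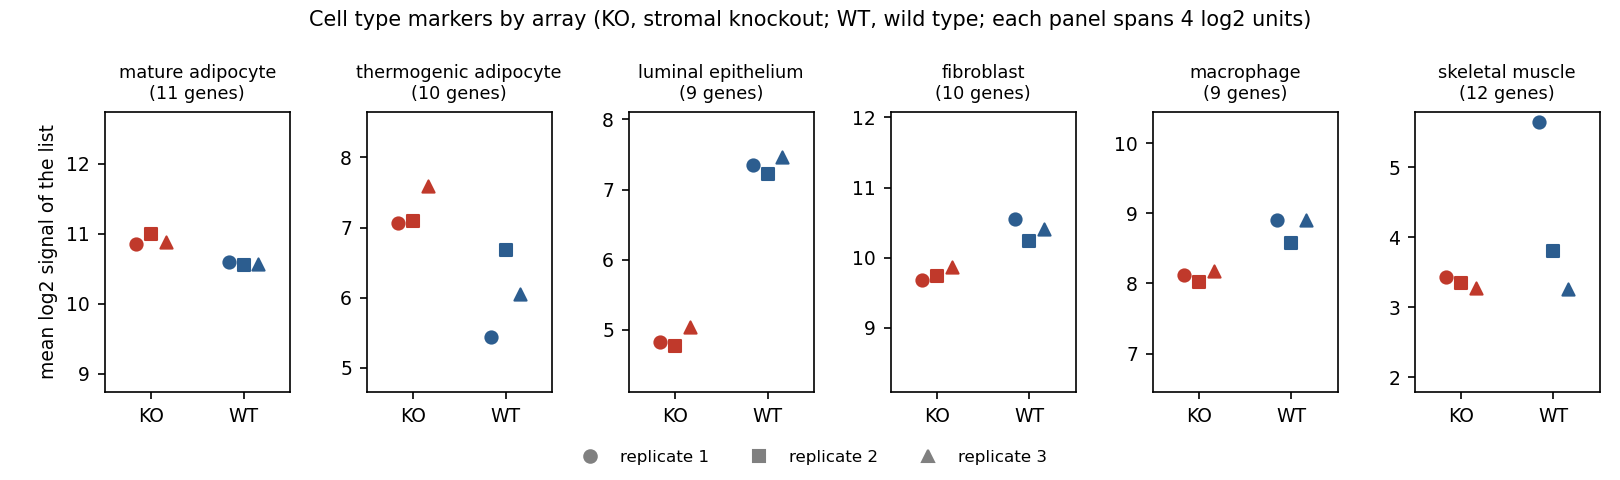
Mean log2 signal of 6 marker lists on each array, knockout (KO) at the left of each panel and wild type (WT) at the right. The luminal list lies at 4.77 to 5.05 in the knockout and 7.23 to 7.47 in wild type, and wild type 1 stands apart for skeletal muscle at 5.64.

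Wild type 1 stood apart in its skeletal muscle markers, with a list mean of 5.64, against 3.28 to 3.43 in the knockout and 3.80 and 3.26 in the other wild-type arrays. It was also the lowest wild-type array for Pnpla2, Lipe, Mgll, Abhd5 and Pde3b and the highest for G0s2 and Plin1. Without it, Abhd5, Pde3b and Plin1 still rose (3 of 7). Calls over all genes also dropped without it, to 521 that rose and 969 that fell, against 1121 and 1596 with all arrays. Of 9 macrophage markers, 6 fell and 0 rose, and of 10 fibroblast markers, 4 fell and 0 rose. Of 7 basal epithelial markers 5 fell, of 8 lymphocyte markers 2 fell, of 7 endothelial markers 2 rose, and of 4 Schwann cell markers 1 rose and 1 fell. Of the 12 muscle markers 0 passed in limma, and 1 was higher and 1 lower at an unadjusted p under 0.05. In whole glands, fewer cells of a type and less RNA per cell cannot be told apart, and the part of these cell types in the changes of the lipolysis genes was not tested.

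With each array scaled to its mean over the 11 mature adipocyte markers, 2 of the 7 lipolysis genes rose and 0 fell, against 1.53% of all genes that rose and 25.6% that fell on that scale. Abhd5 rose by 0.60 ± 0.16 log2 units (limma adjusted p = 0.0245) and Pde3b by 0.49 ± 0.13 (adjusted p = 0.0262) relative to those markers. Plin1 differed by 0.33 ± 0.13 (adjusted p = 0.0859), Mgll by 0.35 ± 0.16 (0.132), Lipe by 0.23 ± 0.13 (0.197) and Pnpla2 by 0.06 ± 0.12 (0.704). G0s2 was at -0.27 ± 0.20 (0.308). By construction the scaling takes 0.33 from the difference of every gene, which sets the sign change of G0s2, and it moved the median of all genes to -0.30. Some of the 11 markers, such as Fabp4 at 12.84 in the knockout and 12.73 in wild type, also lie close to the array maxima.

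**Figure D3:**
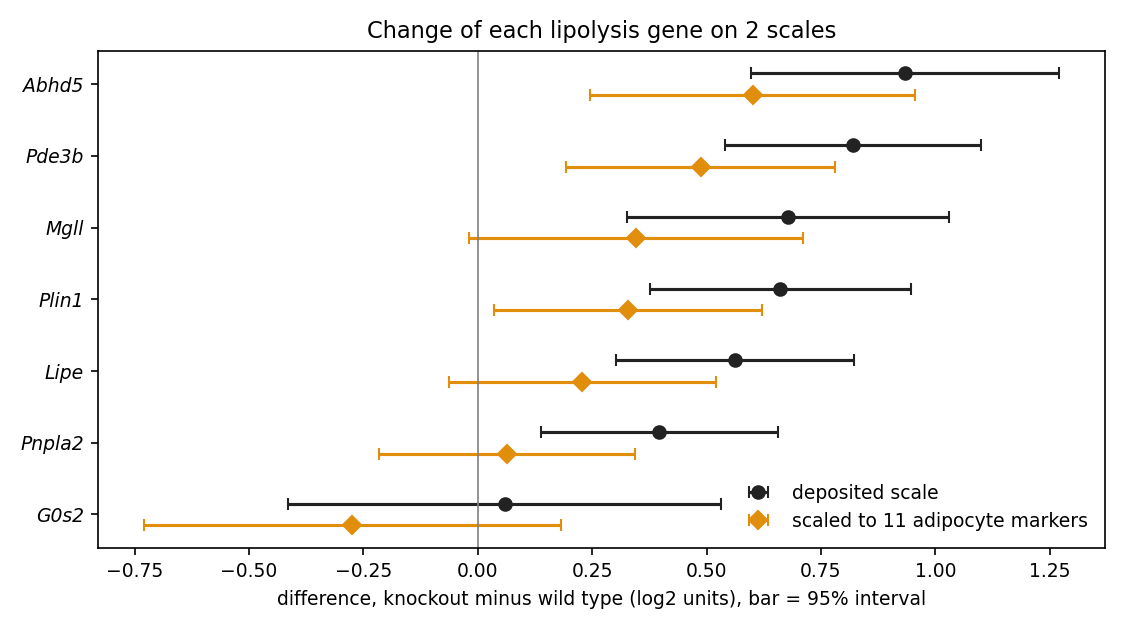
Difference of each lipolysis gene, knockout minus wild type in log2 units, with its 95% interval, on the deposited scale (black circles) and with arrays scaled to 11 adipocyte markers (orange diamonds). The scaling takes the same 0.33 from every difference by construction, and Abhd5 and Pde3b are the genes called on both.

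The other genes of the pathway were taken from 9 lists with 84 entries, of which 75 were measured. Of these, 19 rose (25.3%) and 3 fell (4.0%), against 5.05% of all genes that rose and 7.2% that fell. The same shares of all genes stand beside the counts of each list below. The median difference of the 75 genes was 0.11, against 0.03 over all genes. Genes that passed the test were found in 6 of the lists, those for the G protein and kinase step, receptor kinases and arrestins, the receptors that restrain lipolysis, the insulin branch, other lipases and the handling of the products, while the alpha-adrenergic, phosphodiesterase and natriuretic peptide lists held 0 calls.

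Upstream of the lipases, 4 of 15 genes for the stimulatory G protein, adenylyl cyclases and protein kinase A rose and 0 fell, with a list median of 0.21. At an unadjusted p under 0.05, 6 of them were higher and 1 lower, the cyclase gene Adcy7 (-0.79 ± 0.24, limma adjusted p = 0.0714). With an intensity trend in the variance, Adcy7 passed as lower (limma adjusted p = 0.0369). Akap1, which anchors protein kinase A at the mitochondrial outer membrane, rose by 0.80 ± 0.11 log2 units (1.74-fold, limma adjusted p = 0.00418). The cyclase gene Adcy9 rose by 0.73 ± 0.16 (adjusted p = 0.0218), Prkar2b, the regulatory subunit prevalent in fat, by 0.71 ± 0.17 (0.0374) and the catalytic subunit gene Prkaca by 0.63 ± 0.12 (0.0121). The call of Akap1 held without any 1 array, and that of Prkaca was lost without knockout 2 (adjusted p = 0.0522). Adcy9 kept its call without knockout 3 or wild type 2, and Prkar2b without knockout 1 or wild type 2. Of 2 measured alpha-adrenergic receptor genes, Adra1b and Adra2c, neither passed, at an unadjusted p under 0.05 either (differences 0.07 and 0.35), and Adra2c lay under the 33rd percentile of gene levels. Among 6 receptor kinases and arrestins, Arrb2, an arrestin that uncouples receptors from their G proteins, fell by 0.69 ± 0.18 (adjusted p = 0.0442), a call that held without knockout 3 and was lost without any other array (adjusted p 0.0737 to 0.136). The other arrestin gene of the list, Arrb1, differed by -0.42 ± 0.12 without overlap of the groups (limma adjusted p = 0.0574). With an intensity trend in the variance, Arrb1 passed as lower (limma adjusted p = 0.0154).

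Receptors that couple to inhibitory G proteins and restrain lipolysis moved in both directions. Their list also held the inhibitory G protein genes Gnai1, Gnai2 and Gnai3, which did not pass. Of its 9 measured genes 4 were higher and 1 lower, all of them receptor genes, with a list median of 0.45. Ffar2, a receptor for short-chain fatty acids, had 5.63, 5.95 and 5.80 in knockout glands, against 4.51, 4.39 and 4.44 in wild-type glands. It rose by 1.35 ± 0.12 log2 units (2.54-fold, limma adjusted p = 0.000862), and its lowest knockout array stood above its highest wild-type array by more than the range within either group. Hcar1, the lactate receptor, rose by 1.11 ± 0.21 (2.16-fold, adjusted p = 0.0152) and Hcar2, a receptor for ketone bodies and niacin, by 1.00 ± 0.17 (2.00-fold, adjusted p = 0.00955). Ptger3, a receptor for prostaglandin E2, had 8.17, 8.39 and 8.82 in knockout glands, against 9.88, 9.69 and 9.72 in wild-type glands. It fell by 1.30 ± 0.18 (adjusted p = 0.00402), the opposite direction to the other receptors of the list that passed. These calls held without any 1 array. Ffar4, a receptor for long-chain fatty acids from the same list, was picked for naming after its values had been seen. It rose by 0.97 ± 0.21 (limma adjusted p = 0.0224), a call kept without knockout 1 or wild type 1.

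Of 8 genes of the insulin branch, which opposes lipolysis through Pde3b, 2 rose and 0 fell, with a list median of 0.14. The insulin receptor gene Insr rose by 0.61 ± 0.11 log2 units (1.53-fold, limma adjusted p = 0.0106) and held without any 1 array. The adaptor gene Irs2 rose by 0.59 ± 0.13 (adjusted p = 0.0244), a call kept without wild type 3 and lost without any other array (adjusted p 0.0554 to 0.0847). Among the 10 other cyclic AMP phosphodiesterases 0 passed in limma and the list median was -0.02, whereas Pde3b rose. At an unadjusted p under 0.05, 1 of them was higher (Pde1b, 0.67, adjusted p = 0.0932) and 1 lower (Pde7a, -0.35, 0.120). In alternative runs Pde1b passed as higher under repeated quantile normalization (limma adjusted p = 0.0442), median centring (0.0282), replicate number as a block (0.0499) and without knockout 1 (0.0185). On the adipocyte scale 0 of these 10 rose and 2 fell, and without knockout 3 it was 0 and 1. Among 5 natriuretic peptide genes 0 passed, with a list median of 0.06. Of these 1 was higher at an unadjusted p under 0.05, the clearance receptor gene Npr3 (0.73, limma adjusted p = 0.134).

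Of 12 other neutral lipases and their regulators, 3 rose and 1 fell, with a list median of 0.03. Fitm2, which takes part in lipid droplet formation, rose by 1.07 ± 0.14 log2 units (2.10-fold, limma adjusted p = 0.00363). The carboxylesterase genes Ces1f and Ces1d rose by 0.89 ± 0.14 (adjusted p = 0.00707) and 0.69 ± 0.14 (0.0156). They are related genes of 1 family, and whether their probes share signal was not tested. Pnpla3, a relative of Pnpla2 that is known to bind Abhd5, fell by 0.98 ± 0.23 (adjusted p = 0.0319), with 8.52, 9.27 and 9.27 in knockout glands, against 10.28, 9.84 and 9.88 in wild-type glands. The Ces1d call was lost without knockout 2 or wild type 1 (adjusted p = 0.0618 and 0.0608), and that of Pnpla3 without knockout 2 or any wild-type array (adjusted p 0.0507 to 0.108). Hilpda, which like G0s2 inhibits adipose triglyceride lipase, differed by 0.08 ± 0.16 (adjusted p = 0.814).

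Of 8 genes that handle the glycerol and fatty acids released, 6 rose and 0 fell, with a list median of 0.63. With each array left out in turn the count was 3 or 4 of 8, the lower one without knockout 2, knockout 3 or wild type 2. On the adipocyte scale it was 2 of 8, where Fabp4 and Cd36 of this list are also among the scaling markers. Aqp7, the glycerol channel of fat cells, had 10.70, 10.95 and 10.96 in knockout glands, against 9.42, 9.59 and 9.51 in wild-type glands. It rose by 1.36 ± 0.13 log2 units (2.57-fold, limma adjusted p = 0.000862). Pck1, an enzyme of glycerol synthesis for re-esterification, rose by 1.30 ± 0.24 (2.46-fold, adjusted p = 0.0120), the fatty acid binding protein gene Fabp5 by 0.80 ± 0.17 (0.0247) and Dgat1, which adds the last fatty acid to triglyceride, by 0.69 ± 0.11 (0.00859). The calls of Aqp7, Pck1 and Dgat1 held without any 1 array, and that of Fabp5 was kept without knockout 1 or wild type 3. The remaining members that rose were Gpd1, which makes glycerol phosphate (0.57 ± 0.13, limma adjusted p = 0.0279, kept without wild type 1 and lost without any other array), and the fatty acid transporter gene Cd36 (0.43 ± 0.11, 0.0450, lost without any 1 array).

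**Figure D4:**
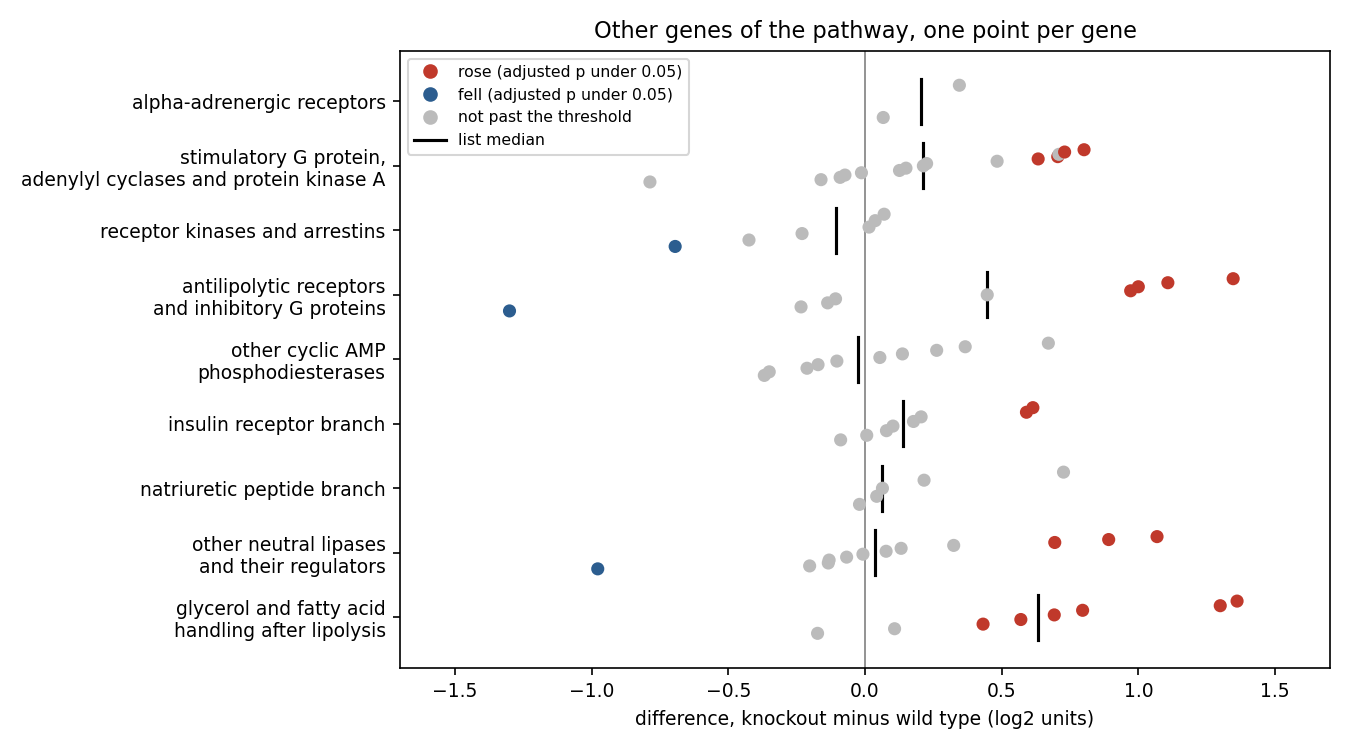
Difference of each measured gene of the 9 pathway lists, knockout minus wild type in log2 units, with 1 point per gene coloured by call and a black line at each list median. The highest median is that of glycerol and fatty acid handling at 0.63, and Ptger3 is the lowest point at -1.30.

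With arrays scaled to the adipocyte markers, 9 of the 75 pathway genes rose (12%) and 13 fell (17.3%), against 1.53% and 25.6% of all genes on that scale. Fabp4 and Cd36 are pathway genes and also belong to the markers used for the scaling, so they were compared partly with themselves. Aqp7 (1.03, limma adjusted p = 0.00129), Pck1 (0.97, 0.0199), Ffar2 (1.01, 0.000968), Hcar1 (0.77, 0.0373), Hcar2 (0.67, 0.0348), Fitm2 (0.74, 0.00636) and Akap1 (0.47, 0.0298) still rose on that scale, as did Ces1f (0.56, 0.0225) and Ffar4 (0.64, 0.0461). Among the genes that no longer passed as higher were Prkaca (0.30, limma adjusted p = 0.0887), Insr (0.28, 0.116), Dgat1 (0.36, 0.0616), Adcy9 (0.40, 0.120) and Prkar2b (0.37, 0.143). The 13 that fell included Ptger3 (-1.63, limma adjusted p = 0.000659), Adcy7 (-1.12, 0.0117), Arrb2 (-1.03, 0.00685) and the other arrestin gene Arrb1 (-0.76, 0.00523).

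Genes whose profile over the 6 arrays came closest to Abhd5 and Pde3b, the members with the largest differences, were sought by the root mean square difference after each gene was centred on its own mean, among 13770 genes. Closest to Abhd5 were Clpx, part of a mitochondrial protease, at 0.05 log2 units, Gdap10 at 0.06 and the interferon gamma receptor gene Ifngr1 at 0.07. Closest to Pde3b were Etfa, an electron carrier of fatty acid oxidation, at 0.03, the mitochondrial dehydrogenase gene Idh2 at 0.04 and Pccb, a subunit of propionyl-CoA carboxylase, at 0.05. All 6 differed in the same direction as the member they resembled, by construction of the measure.

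As a check of the labels, Mmp14 read 8.57, 8.55 and 8.75 in knockout glands, against 11.18, 10.55 and 10.90 in wild-type glands, so that the knockout kept 21.0% of the signal (limma adjusted p = 0.000454). Array medians over all probe sets ran from 3.77 to 3.89. Arrays of 1 group correlated at 0.990 to 0.992 across genes (Pearson) and arrays of different groups at 0.975 to 0.983, where genes do not count as replicates. Over all genes 1121 rose and 1596 fell. Centring used the array medians over the 22180 genes instead of those over all probe sets. It shifted the all-gene median from 0.03 to 0.22, after which 3155 rose and 1178 fell. On that scale 6 of the 7 lipolysis genes rose, Pnpla2 included (limma adjusted p = 0.0175).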

How the data were processed

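For each array the authors deposited log2 values, 1 for every probe set. RMA and limma, both without a version, are the tools in the submitters' processing notes. The log base is not written in the table and was taken as 2 from RMA and the range of the values. No source used here gives the chip definition, probe filters or summary level. Of 41345 probe sets, 23521 carried 1 gene symbol in the platform annotation, 1814 several, and 16010 were unnamed here. A RefSeq table of assembly GRCm38.p6 altered 0 symbols.

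The highest-mean probe set per symbol gave 22180 genes, and the groups were compared with limma 3.58.1 (lmFit, eBayes, no intensity trend) under R 4.3.3. P-values were adjusted by Benjamini-Hochberg over all genes, with a threshold of 0.05, and standard errors are the moderated ones. The main limma fit was tested on simulated data, and the other steps were not. The members and lists were chosen with earlier results of these data known. Named were all members, per list up to 4 genes past the threshold by size of difference (all of them where there were up to 4), Mmp14, Ucp1 and Adipoq. The rule also called for the genes most like Adrb1 and Adrb3; since these were not analysed here, Abhd5 and Pde3b took their place after their values had been seen. Other genes named were Adcy7, Adra1b, Adra2c, Arrb1, Gnai1, Gnai2, Gnai3, Hilpda, Pde1b, Pde7a, Npr3, Gpd1, Cd36, Zic1, Fabp4 and Ffar4, chosen for naming after seeing their values. Replicate numbers were not used as pairs. The number of arrays limits the precision.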

Additional observations from a re-analysis of the deposited data

How the results depend on the processing

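In every alternative run, the differences of Abhd5, Pde3b, Mgll, Plin1, Lipe and Pnpla2 stayed positive. The 5 genes called rose also under repeated quantile normalization, the mean of probe sets and every probe set tested alone. Pnpla2 joined them, making 6, with low genes left out (adjusted p = 0.0339), either intensity trend, array weights, median centring and an adjusted p under 0.1. Rises over all genes grew in these runs too, from 1121 in the main fit. They were 1417 with low genes left out, 1550 and 1553 with the intensity trends and 1264 with array weights. With the replicate number as a block, 4 members rose, Lipe being lost (adjusted p = 0.0601), and 1923 genes were called, 689 higher and 1234 lower; the labels tie same-numbered arrays to no common litter or batch, and their deviations from the group means did not go together (r -0.05 to -0.03). No member differed at least 2-fold, so 0 rose under that rule, with 5 pathway rises, 1 pathway fall and 870 genes called (190 higher, 680 lower). Scaled to adipocyte markers, 2 members and 9 pathway genes rose, 13 pathway genes fell and 6016 genes were called (339 higher, 5677 lower). Median centring called 4333 genes (3155 higher) and an adjusted p under 0.1 called 4090 (1857 higher). Pathway falls were 5 with either intensity trend, array weights or an adjusted p under 0.1. With 1 array left out, 2 to 4 members rose, the lowest count being without knockout 2 (3 without wild type 1), 10 to 17 pathway genes rose and 1 to 5 fell. Over all genes, 1490 to 2304 were called, 494 to 877 higher and 969 to 1427 lower. The G0s2 difference ran from -0.10 to 0.27 with 1 array left out and changed sign without knockout 3 (-0.03), without wild type 3 (-0.10) and on the adipocyte scale (-0.27, by construction of the shift), passing in none. The 3 within-array differences kept their sign in all alternatives run, and the planned pair of Adrb1 and Adrb3 was not run because they were not analysed here. Signals near the array maxima, as for Pnpla2, may be compressed. The causes of the lost and gained calls were not tested.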
